A study of Mus musculus with 14 samples.

Results

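A set of 10 neutrophil genes was followed across the livers of 3 mouse genotypes: S100a8, S100a9, Ngp, Camp, Ltf and Retnlg, which encode granule and other abundant proteins, Cxcr2, Csf3r and Cd177, which encode surface proteins, and Il1b, a cytokine. They were chosen by name, each was read from its probe for a single gene, and all 10 listed genes were measured, out of 19938 genes on the array. The livers were free of tumour and came from female mice aged 14 months. Mdr2-KO/IL6-KO livers (6 arrays) lacked Mdr2 and IL-6, Mdr2-KO livers (5 arrays) lacked Mdr2 alone, and wild-type livers (3 arrays) came from C57BL/6 mice. The strain background of the knockouts was not stated in the labels, and neither was whether each array was a separate mouse, so p-values measure only the spread between arrays. Mdr2 is the gene now called Abcb4, which moves phospholipid into bile, and IL-6 is a cytokine to which hepatocytes respond with acute phase proteins.

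Neutrophils are made in the bone marrow and fill their granules in succession while they mature. Primary granules hold myeloperoxidase and serine proteases, and secondary granules hold lactoferrin, cathelicidin and the neutrophilic granule protein. S100a8 and S100a9 are calcium-binding proteins of the cytosol that pair as calprotectin and are released at sites of inflammation. Cxcr2 binds neutrophil-attracting chemokines, and Csf3r binds the growth factor G-CSF. In liver, neutrophils gather around injured bile ducts and in areas of cell death. In bulk tissue, more cells of a type and more RNA per cell cannot be told apart.

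The genes lie at a few places in the genome (GRCm38.p6). S100a8 (chr3:90669071-90670034) and S100a9 (chr3:90692630-90695721) are neighbours, 22.6 kb apart. Camp (chr9:109847377-109849456), Ngp (chr9:110419808-110423012) and Ltf (chr9:111019292-111042766) lie within 1.2 Mb of each other. Retnlg is on chromosome 16, Cxcr2 on 1, Csf3r on 4, Cd177 on 7 and Il1b on 2. Promoter sequences are shown for S100a8, S100a9 and Ngp, which stood out among the 10 genes in a pair of arrays described below, and for Il1b, which did not. Each runs from 250 bases before to 50 bases after the start that the RefSeq promoter table uses, 5′ to 3′ on the strand of the gene. For Il1b that start lies inside the outer end of the annotated gene. Capitals mark matches to the C/EBP letters TTNNGCAA, which read TTGCNNAA on the other strand, and to the PU.1 core GAGGAA, which reads TTCCTC on the other strand. Both strands were searched. C/EBP factors and PU.1 are the transcription factors best known for driving granule gene expression in maturing neutrophils.
S100a8 (chr3:90668821-90669120): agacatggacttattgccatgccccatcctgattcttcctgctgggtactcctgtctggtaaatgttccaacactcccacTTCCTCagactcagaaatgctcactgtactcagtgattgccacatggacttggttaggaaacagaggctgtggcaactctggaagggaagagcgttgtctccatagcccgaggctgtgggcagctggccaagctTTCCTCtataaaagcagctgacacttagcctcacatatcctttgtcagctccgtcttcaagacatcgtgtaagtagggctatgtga
S100a9 (chr3:90695672-90695971, minus strand): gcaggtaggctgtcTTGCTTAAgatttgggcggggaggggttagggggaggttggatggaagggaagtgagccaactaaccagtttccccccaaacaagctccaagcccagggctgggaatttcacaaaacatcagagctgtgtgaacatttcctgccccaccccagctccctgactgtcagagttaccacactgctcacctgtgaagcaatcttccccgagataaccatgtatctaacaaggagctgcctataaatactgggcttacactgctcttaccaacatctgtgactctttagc
Ngp (chr9:110419558-110419857): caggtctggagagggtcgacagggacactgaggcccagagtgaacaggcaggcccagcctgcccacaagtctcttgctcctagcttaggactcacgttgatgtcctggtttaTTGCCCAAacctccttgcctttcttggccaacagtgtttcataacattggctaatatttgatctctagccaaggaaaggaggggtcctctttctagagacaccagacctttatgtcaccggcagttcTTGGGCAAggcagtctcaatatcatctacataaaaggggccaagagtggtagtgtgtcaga
Il1b (chr2:129371090-129371389, minus strand): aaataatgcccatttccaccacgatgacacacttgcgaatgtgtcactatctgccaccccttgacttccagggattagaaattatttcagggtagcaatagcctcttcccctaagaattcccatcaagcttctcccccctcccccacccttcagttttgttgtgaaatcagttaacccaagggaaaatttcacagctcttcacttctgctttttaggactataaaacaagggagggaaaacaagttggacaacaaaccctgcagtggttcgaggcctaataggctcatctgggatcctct
The S100a8 window held 2 PU.1 matches, the second of them directly before a TATA box. The Ngp window held 2 C/EBP matches, the S100a9 window held 1, near its 5′ end, and the Il1b window held neither motif. The Camp window, not shown, also held neither motif, although Camp too stood out in the pair of arrays. Among the 10 genes, 4 promoters held the C/EBP letters and 5 the PU.1 letters, against 10.8% and 28.3% of 32851 RefSeq promoters of the same length. These letter matches describe the windows and do not show binding.

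Array values are log2 RMA values, so 1 unit is a doubling. A background of 5.48 was taken from olfactory receptor genes, 95% of which lie under it, and the mean of 29.0% of all genes was under that level. Array medians lay between 6.15 and 6.24, and no batch was given in the labels. Abcb4 carried 8.77 to 9.24 in Mdr2-KO/IL6-KO arrays and 8.73 to 9.23 in Mdr2-KO arrays, against 10.33 to 10.39 in wild type, with log2 differences of -1.32 and -1.36 (limma adjusted p 4.84e-06 and 5.09e-06). Il6 lay under background in all 14 arrays, at 2.91 to 4.00, so its probe could not check the IL-6 genotype.

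The most visible feature of the genes was an array of each knockout genotype, Mdr2-KO/IL6-KO array 2 and Mdr2-KO array 3, in which 7 and 8 of the 10 genes lay more than 1 log2 unit above the mean of the other arrays of that genotype. Of all genes, 0.211% and 0.502% did so in these arrays. In the other 12 arrays none of the 10 genes reached that distance, where the mean each knockout array was set against held the extreme array of its genotype. Both arrays are kept in the main comparison, and the tests are also given over the 12 arrays without them. They were picked after these genes' values had been seen, so p-values over the 12 arrays are not independent evidence. For any gene that was highest in them, leaving them out also lowers the knockout means alone.

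Ngp, the neutrophilic granule protein of secondary granules, showed the widest distance. It measured 5.02, 5.55 and 9.24 in Mdr2-KO/IL6-KO arrays (lowest, median and highest of 6) and 5.4, 5.27, 10.21, 5.33 and 5.0 in Mdr2-KO arrays, against 5.94, 5.75 and 5.29 in wild type. Array 2 of Mdr2-KO/IL6-KO and array 3 of Mdr2-KO were far above everything else, and the remaining arrays of the 3 genotypes overlapped around the background. The difference from the other arrays of the genotype was 3.82 and 4.96 log2 units, which placed Ngp second and first among all genes ranked by rise in those arrays.

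S100a8 measured 5.64, 6.06 and 8.99 in Mdr2-KO/IL6-KO arrays (lowest, median and highest) and 6.39, 6.16, 10.12, 6.71 and 6.63 in Mdr2-KO arrays, against 5.55, 5.2 and 5.54 in wild type. Unlike Ngp, every knockout array lay above every wild-type array, also apart from the pair of extreme arrays. One wild-type value was under background and the other 2 were just over it. Its partner S100a9 measured 6.62, 6.72 and 9.21 in Mdr2-KO/IL6-KO arrays (lowest, median and highest) and 6.71, 6.56, 10.35, 7.08 and 6.92 in Mdr2-KO arrays, against 6.80, 6.59 and 6.33 in wild type. For S100a9 the ranges overlapped, since 2 of the 5 Mdr2-KO arrays and 4 of the 6 Mdr2-KO/IL6-KO arrays lay under the highest wild-type value. In the 2 extreme arrays S100a8 was 3 and 3.65 log2 units above the others of its genotype, and S100a9 2.43 and 3.53.

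Camp, the cathelicidin precursor, measured 5.51, 5.96 and 7.21 in Mdr2-KO/IL6-KO arrays (lowest, median and highest) and 5.73, 5.86, 8.12, 5.74 and 5.69 in Mdr2-KO arrays, against 5.82, 5.88 and 5.90 in wild type. Ltf, which encodes the iron-binding lactoferrin, measured 5.08, 5.14 and 7.06 in Mdr2-KO/IL6-KO arrays and 4.95, 4.95, 8.14, 5.0 and 4.94 in Mdr2-KO arrays, against 5.30, 5.15 and 5.26 in wild type. Apart from the extreme arrays, all Ltf values were under background. Retnlg, a resistin-like secreted protein of neutrophils, measured 5.09, 5.38 and 8.06 in Mdr2-KO/IL6-KO arrays and 4.97, 4.97, 7.97, 5.6 and 5.17 in Mdr2-KO arrays, against 5.26, 5.19 and 5.25 in wild type. Retnlg was the granule-group gene with the most equal distance in the 2 arrays, at 2.70 and 2.79 log2 units, while Ngp, Ltf, S100a9 and Camp were further apart in Mdr2-KO array 3 by 1 to 1.24 units.

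**Figure D1:**
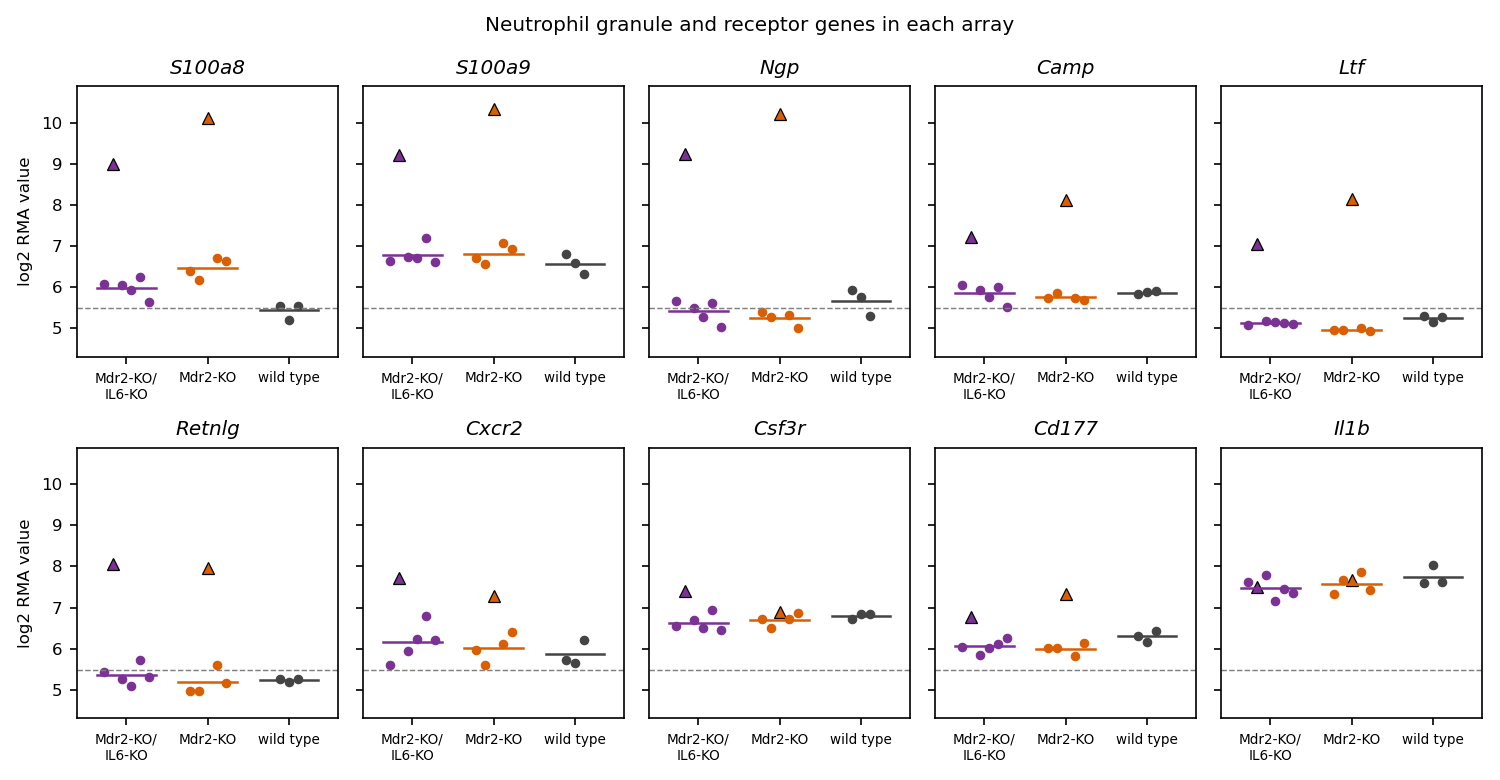
Log2 RMA value (vertical axis) of the 10 genes in each array, with Mdr2-KO/IL6-KO, Mdr2-KO and wild type from left to right; triangles are Mdr2-KO/IL6-KO array 2 and Mdr2-KO array 3, circles the other arrays, the solid line the mean of the circles and the dashed line the background of 5.48. The triangles stand far above the circles for the granule genes (Ngp at 9.24 and 10.21) and among them for Il1b (7.49 and 7.66).

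The surface proteins followed the pattern less fully. Cxcr2 measured 5.61, 6.23 and 7.71 in Mdr2-KO/IL6-KO arrays (lowest, median and highest) and 5.96, 5.61, 7.27, 6.10 and 6.40 in Mdr2-KO arrays, against 5.73, 5.65 and 6.2 in wild type. Its distance was 1.55 log2 units in Mdr2-KO/IL6-KO array 2 and 1.25 in Mdr2-KO array 3, an order opposite to that of the granule genes. Cd177, a surface protein that in human neutrophils binds proteinase 3, measured 5.85, 6.08 and 6.78 in Mdr2-KO/IL6-KO arrays and 6.02, 6.02, 7.33, 5.82 and 6.14 in Mdr2-KO arrays, against 6.30, 6.17 and 6.42 in wild type. Csf3r measured 6.46, 6.62 and 7.40 in Mdr2-KO/IL6-KO arrays and 6.71, 6.49, 6.90, 6.71 and 6.87 in Mdr2-KO arrays, against 6.72, 6.85 and 6.84 in wild type. Csf3r was highest of its genotype in Mdr2-KO/IL6-KO array 2, where the next array lay at 6.94 and the mean of the others was 0.77 log2 units lower. It was also highest in Mdr2-KO array 3, where the next array lay at 6.87 and the mean of the others was 0.21 units lower.

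Il1b, the cytokine released after inflammasome activation, stayed level. It measured 7.16, 7.46 and 7.80 in Mdr2-KO/IL6-KO arrays (lowest, median and highest) and 7.32, 7.67, 7.66, 7.87 and 7.43 in Mdr2-KO arrays, against 7.59, 8.03 and 7.61 in wild type. The 2 extreme arrays differed from the rest of their genotypes by 0.02 and 0.09 log2 units, and all 3 groups overlapped.

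Between genotypes over all 14 arrays, no gene of the 10 passed an adjusted p of 0.05 in limma's moderated test in any comparison. In Mdr2-KO/IL6-KO livers, set against wild type, the background was 6.96% of all genes higher and 5.33% lower at an adjusted p of 0.05. None of the 10 genes had an unadjusted p under 0.05 there, against 25.5% of all genes. For Mdr2-KO against wild type 8.89% of genes were higher and 12.1% lower. There 1 of the 10, S100a8, had an unadjusted p under 0.05, against 37.5% of all genes. Mdr2-KO/IL6-KO against Mdr2-KO had 5.04% higher and 3.72% lower, and no gene of the 10 had an unadjusted p under 0.05, against 28.9% of all genes. The lowest adjusted p was 0.122, for S100a8 in Mdr2-KO livers, with a log2 difference of 1.77 (SE 0.80). In Mdr2-KO/IL6-KO livers the S100a8 difference from wild type was 1.06 (SE 0.78, adjusted p 0.450, limma). The other 9 genes ranged from -0.27 (Il1b) to 0.61 (S100a9) in Mdr2-KO/IL6-KO livers and from -0.15 (Il1b) to 0.95 (S100a9) in Mdr2-KO livers against wild type. Without overlap between groups, S100a8 alone among the 10 was higher in Mdr2-KO/IL6-KO livers than in wild type, where 8.57% of all genes were higher and 6.56% lower without overlap. S100a8 was also the 1 such gene in Mdr2-KO livers, where 10.3% of all genes were higher and 13.2% lower. Between the knockouts none of the 10 was free of overlap, against 4.4% of all genes higher and 2.94% lower. The median difference of the 10 genes was 0.30, 0.38 and -0.13 log2 units for Mdr2-KO/IL6-KO minus wild type, Mdr2-KO minus wild type and Mdr2-KO/IL6-KO minus Mdr2-KO, against -0.02, -0.07 and 0.06 for all genes.

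Over the 12 arrays, S100a8 passed against wild type in both knockouts. It averaged 5.99 ± 0.22 in Mdr2-KO/IL6-KO livers (SD, n = 5) and 6.47 ± 0.25 in Mdr2-KO livers (n = 4), against 5.43 ± 0.20 in wild type (n = 3). The log2 difference was 0.56 in Mdr2-KO/IL6-KO livers (SE 0.14, limma adjusted p 0.0238) and 1.04 in Mdr2-KO livers (SE 0.15, limma adjusted p 0.000586). The wild-type mean is under background, so no fold is given. The call for Mdr2-KO livers held when any further array was left out, whereas that for Mdr2-KO/IL6-KO livers did not hold without wild-type array 2 (log2 difference 0.44, limma adjusted p 0.104). The direct comparison of Mdr2-KO/IL6-KO with Mdr2-KO missed the threshold, with a log2 difference of -0.48 (95% interval -0.77 to -0.20, limma adjusted p 0.0621). Among the 12 arrays S100a8 was thus highest in Mdr2-KO livers, followed by the livers lacking both genes, and the values of these neighbours overlapped.

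S100a9 did not pass over the 12 arrays. Its log2 difference was 0.20 in Mdr2-KO/IL6-KO livers (95% interval -0.12 to 0.52) and 0.24 in Mdr2-KO livers (-0.09 to 0.57). Ngp, Camp and Retnlg fell short of the threshold in all comparisons, with log2 differences from -0.41 to 0.18. Ltf was the other gene to pass, lower in Mdr2-KO livers at 4.96 ± 0.03 (SD, n = 4) against 5.24 ± 0.08 in wild type (n = 3, limma adjusted p 0.00931). Both means are under background, so no fold is given, and after quantile normalization the adjusted p was 0.14. Cd177 lay lower in every one of the 4 Mdr2-KO arrays than in wild type, at 5.82 to 6.14 against 6.17 to 6.42, but did not pass (log2 difference -0.30, SE 0.10, limma adjusted p 0.059). The olfactory receptor genes that set the background had a median difference of -0.12 in the same comparison of Mdr2-KO with wild type. Cxcr2, Csf3r and Il1b did not pass in any comparison.

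Counted over the 12 arrays, 1 of 10 genes was higher in Mdr2-KO/IL6-KO livers than in wild type, where 6.15% of all genes were higher and 4.6% lower. In Mdr2-KO livers 1 gene was higher and 1 lower, where 8.11% of all genes were higher and 9.82% lower. Between the knockouts none of the 10 passed, where 1.72% of all genes were higher and 1.73% lower. There 2 of the 10 had an unadjusted p under 0.05, against 22% of all genes. Without overlap between groups, S100a8 was the 1 gene higher in Mdr2-KO/IL6-KO livers than in wild type (9.37% of all genes higher, 7.28% lower). In Mdr2-KO livers 1 gene was higher without overlap, S100a8, and 2 lower, Ltf and Cd177 (12.1% of all genes higher, 15.5% lower). Between the knockouts Ltf was the 1 gene free of overlap, higher in Mdr2-KO/IL6-KO livers though under background in both (6.77% of all genes higher, 3.77% lower). These counts are close to the background shares, so they say nothing particular about the 10 genes as a list.

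**Figure D2:**
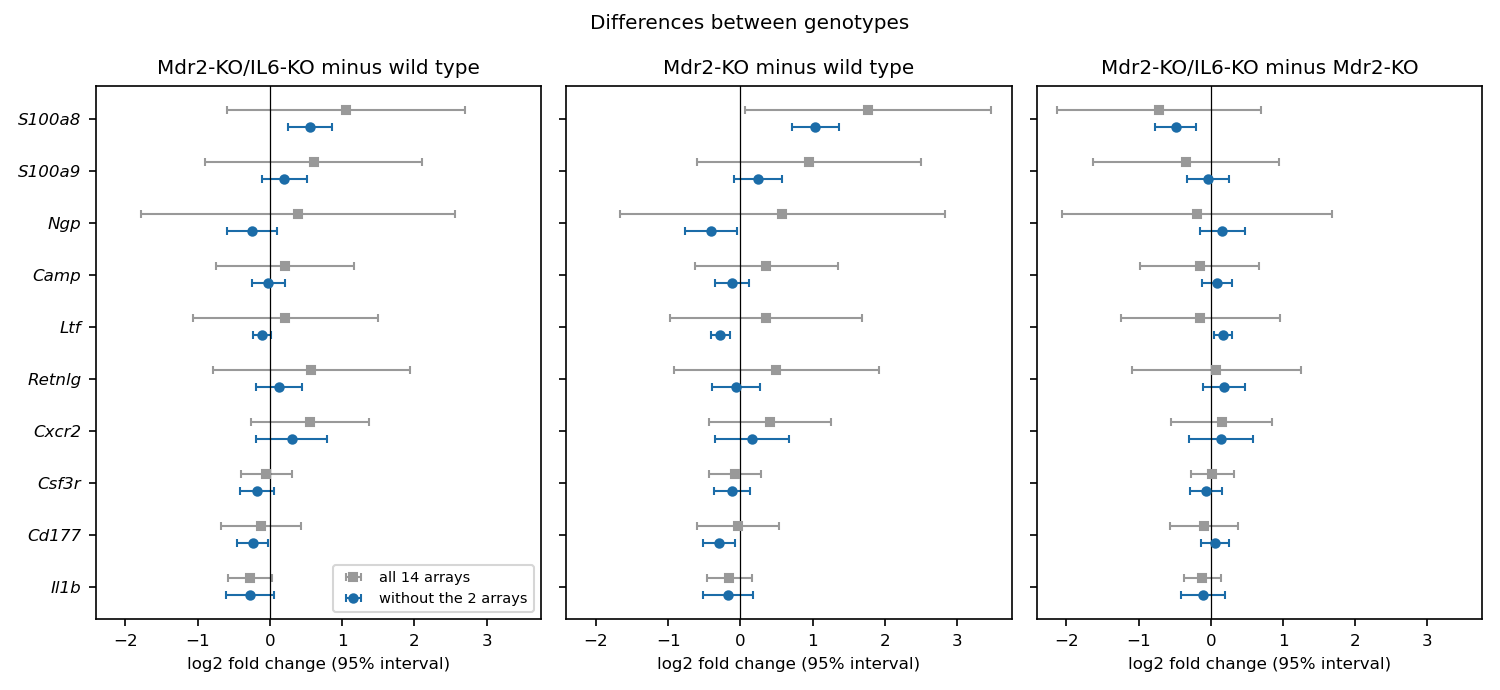
Log2 fold change with its 95% interval (horizontal axis) of each gene in the 3 comparisons; grey squares are all 14 arrays and blue circles the 12 arrays without Mdr2-KO/IL6-KO array 2 and Mdr2-KO array 3. Without them the intervals shrink for all genes but Il1b, whose intervals widen slightly. S100a8 then lies at 0.56 and 1.04 against wild type, and Ngp moves to the negative side, at -0.25 and -0.41.

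Genes of neighbouring functions were read from lists of 70 genes, 62 of them measured. Of the 8 genes for primary granules and marrow precursors, 3 lay more than 1 log2 unit above the other arrays in Mdr2-KO/IL6-KO array 2 and 5 in Mdr2-KO array 3. Mpo, which encodes myeloperoxidase, measured 7.50 in Mdr2-KO/IL6-KO array 2 against 5.48 to 5.71 in the others of its genotype, and 9.16 in Mdr2-KO array 3 against 5.27 to 5.71. Prtn3, which encodes proteinase 3, measured 6.11 in Mdr2-KO/IL6-KO array 2 against 5.33 to 5.73, and 8.78 in Mdr2-KO array 3 against 5.30 to 5.49. The 8 measured genes of this list had a median distance of 0.58 log2 units in Mdr2-KO/IL6-KO array 2 and 2.41 in Mdr2-KO array 3. In Mdr2-KO array 3 the distances of Elane and Ctsg, which encode granule serine proteases, were 3.49 and 3.10, and in Mdr2-KO/IL6-KO array 2 they were 1.22 and 1.40. The transcription factors Cebpe and Gfi1, which act in granulocyte precursors, lay at -0.19 and -0.07 in Mdr2-KO/IL6-KO array 2 and at -0.17 and 0.11 in Mdr2-KO array 3, and Fcnb, a ficolin, lay at 0.40 and 0.59. The 10 other granule and secreted proteins had a median distance of 0.97 in Mdr2-KO/IL6-KO array 2 and 1.11 in Mdr2-KO array 3, and 5 of them exceeded 1 unit in each. The 15 other receptors and surface proteins had medians of 0.36 and 0.35, and 2 exceeded 1 unit in each array. Among the secreted proteins, Mmp8, the neutrophil collagenase, lay 2.49 and 3.34 units above its genotype in Mdr2-KO/IL6-KO array 2 and Mdr2-KO array 3. Chil3, a chitinase-like protein, lay 3.30 and 3.32 units above. Ly6g, the surface antigen used to define mouse neutrophils, lay 1.09 and 1.88 units above, while its values in all other arrays of the 3 genotypes, 4.14 to 5.14, were under background. Lyz2, Clec4d and Ptafr lay below the others in Mdr2-KO array 3, at -0.44, -0.48 and -0.87. The other arrays of the genotype were also under background for Chil3, Mmp8, Ctsg and Ltf in both knockouts and for Ngp in Mdr2-KO, so those distances are differences of measured values and at best lower limits.

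Markers of other cell types did not share this distance. The mean level of 10 monocyte and macrophage markers was 8.85 in Mdr2-KO/IL6-KO array 2, against 8.44 to 8.87 in the others of its genotype, and 8.57 in Mdr2-KO array 3, against 8.36 to 8.76. The 4 erythroid, 5 platelet, 7 eosinophil and mast cell and 8 hepatocyte markers had median distances between -0.02 and 0.05 log2 units in both arrays. Of the 7 eosinophil and mast cell markers, 6 had a mean under background, which limits what their distances can show. Erythroid Slc4a1 lay at 0.47 in Mdr2-KO/IL6-KO array 2 and 0.51 in Mdr2-KO array 3, and the other erythroid markers lay between -0.30 and 0.12. The 6 T cell markers averaged 5.76 in Mdr2-KO/IL6-KO array 2, under the 5.82 to 6.28 of the other arrays of that genotype, and 5.66 in Mdr2-KO array 3, under the 5.99 to 6.11 of its own. The 4 B cell markers averaged 5.51 and 5.39 in the same arrays, also under the others, at 5.78 to 6.37 in Mdr2-KO/IL6-KO and 5.44 to 5.91 in Mdr2-KO. Their part in the neutrophil values was not tested.

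**Figure D3:**
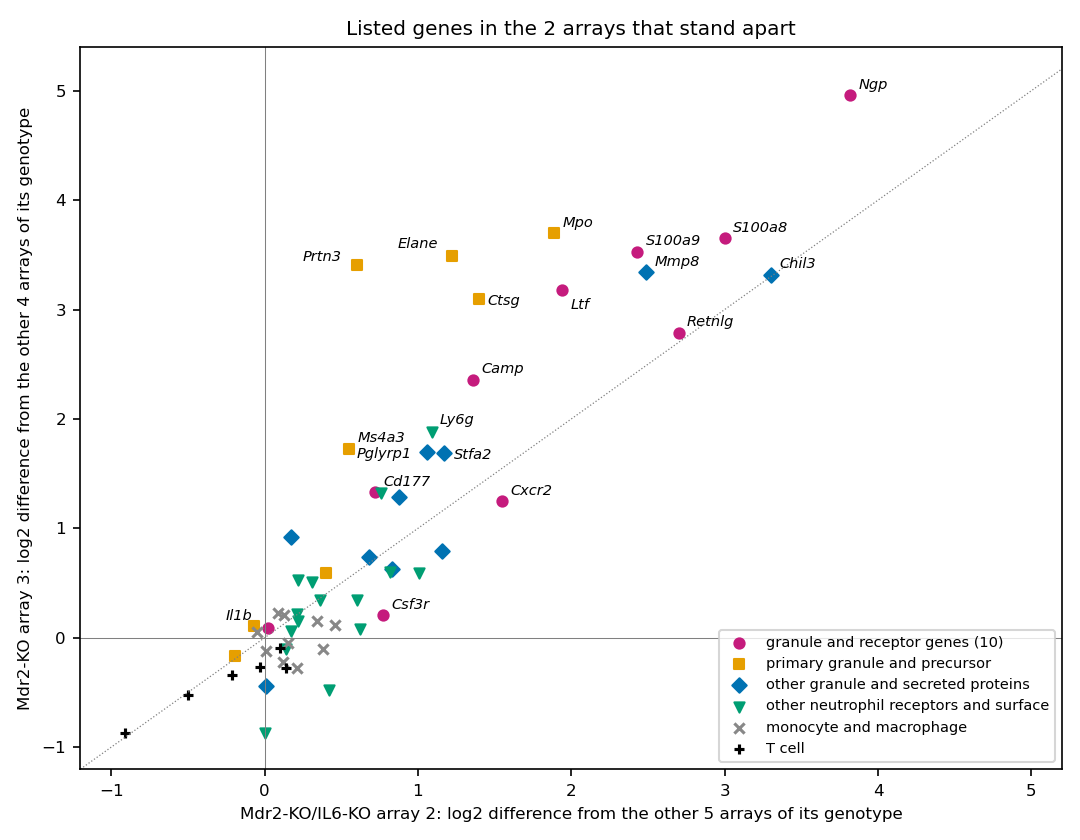
Log2 difference from the other arrays of the genotype in Mdr2-KO/IL6-KO array 2 (horizontal axis) and Mdr2-KO array 3 (vertical axis), 1 point per gene, with the dotted line marking equal differences. Ngp is the farthest point (3.82 and 4.96), the primary granule genes Mpo, Elane, Prtn3 and Ctsg lie above the line, and monocyte, macrophage and T cell genes lie near or under 0.

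Between genotypes, the further lists changed in single genes. Over 14 arrays 3 of 62 measured genes were higher and 5 lower in Mdr2-KO/IL6-KO livers than in wild type, where 6.96% of all genes were higher and 5.33% lower. In Mdr2-KO livers 3 were higher and 5 lower than in wild type, where 8.89% of all genes were higher and 12.1% lower. Between Mdr2-KO/IL6-KO and Mdr2-KO livers 1 was higher and 3 lower, where 5.04% of all genes were higher and 3.72% lower. Over the 12 arrays the counts were 3 higher and 7 lower (6.15% and 4.6% of all genes), 3 and 10 (8.11% and 9.82%), and 1 and 1 (1.72% and 1.73%). Markers of other leukocytes moved in the same comparisons. Over 14 arrays 4 of 6 T cell and 2 of 4 B cell markers were lower than wild type in each knockout, and of 10 monocyte and macrophage markers 2 were higher and 1 lower in each. The mean of the T cell markers ranged over 5.76 to 6.28 in Mdr2-KO/IL6-KO and 5.66 to 6.11 in Mdr2-KO arrays, against 6.31 to 6.82 in wild type. The mean of the B cell markers ranged over 5.51 to 6.37 in Mdr2-KO/IL6-KO and 5.39 to 5.91 in Mdr2-KO arrays, against 5.98 to 6.96 in wild type. The monocyte and macrophage mean ranged over 8.44 to 8.87 in Mdr2-KO/IL6-KO and 8.36 to 8.76 in Mdr2-KO arrays, against 8.56 to 8.75 in wild type. Their part in the differences below was not tested. No primary granule gene passed over 14 arrays. Without the extreme arrays Prtn3 was lower than wild type in Mdr2-KO/IL6-KO livers (log2 difference -1.07, SE 0.23, limma adjusted p 0.00851) and in Mdr2-KO livers (-1.21, SE 0.24, limma adjusted p 0.00463). Its wild-type values were spread, at 7.40, 6.47 and 5.87, and the knockout values, 5.30 to 5.73, lay around the background. Elane was lower in Mdr2-KO livers than in wild type over the 12 arrays (log2 difference -0.33, limma adjusted p 0.0175). Mpo was lower there too, at 5.46 ± 0.19 in Mdr2-KO (SD, n = 4) against 5.88 ± 0.10 in wild type (n = 3, limma adjusted p 0.0115), and no fold is given since the Mdr2-KO mean is under background. Olfactory receptor genes, from which the background was taken, had a median difference of -0.12 for Mdr2-KO minus wild type over the 12 arrays. The part of that shift in these calls was not tested. The arrays left out held the highest Prtn3, Elane and Mpo values of their genotypes. Leaving them out lowers the knockout means alone, so these calls are not independent evidence.

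Of the receptors for S100a8 and S100a9, Cd14, the co-receptor that hands lipopolysaccharide to Tlr4, was higher in both knockouts. It measured 7.55, 7.90 and 8.62 in Mdr2-KO/IL6-KO arrays (lowest, median and highest) and 7.89, 7.86, 9.23, 8.15 and 7.95 in Mdr2-KO arrays, against 6.99, 6.92 and 6.47 in wild type. No knockout array overlapped with wild type. The log2 difference was 1.15 in Mdr2-KO/IL6-KO livers (SE 0.28, limma adjusted p 0.0121) and 1.42 in Mdr2-KO livers (SE 0.28, limma adjusted p 0.00331), and 1.02 and 1.17 over the 12 arrays. The first of these calls was lost without wild-type array 3 (adjusted p 0.0732). Ly96, which encodes the MD-2 subunit of that receptor, was lower in Mdr2-KO/IL6-KO livers than in wild type by a log2 difference of -0.60 and than in Mdr2-KO livers by -0.45 (limma adjusted p 0.019 and 0.049). The second of these calls was lost over the 12 arrays (adjusted p 0.162), under quantile normalization (0.0536) and without most single arrays, and the first was lost without wild-type array 2 or 3 (0.0938 and 0.0634) and was -0.51 over the 12 arrays (0.0245). Tlr4 and Ager did not pass.

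Wfdc21, a small secreted protein of the whey acidic protein family, separated the knockouts. It measured 6.73, 8.39 and 9.13 in Mdr2-KO/IL6-KO arrays (lowest, median and highest), against 10.07, 10.03, 10.70, 9.64 and 9.90 in Mdr2-KO arrays, with no overlap. The log2 difference was -1.90 (SE 0.32, limma adjusted p 0.00318) and -1.94 over the 12 arrays (limma adjusted p 0.00437). Wild type, at 9.56, 8.75 and 9.13, had a mean between theirs, lay under every Mdr2-KO array and overlapped with Mdr2-KO/IL6-KO. Over the 12 arrays Wfdc21 was also lower in Mdr2-KO/IL6-KO livers than in wild type (-1.18, limma adjusted p 0.0294). Lyz2, the lysozyme shared by neutrophils and macrophages, was higher in Mdr2-KO/IL6-KO livers (log2 difference 0.46, limma adjusted p 0.0078) and in Mdr2-KO livers (0.38, limma adjusted p 0.02) than in wild type, and the second call was lost without wild-type array 1 or 2 (0.0523 and 0.0528). The Lyz2 differences were 0.46 and 0.47 over the 12 arrays. Lcn2, lipocalin 2, did not pass, with values from 11.26 to 12.69 that overlapped in all 3 groups.

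Among ligands, Ppbp, which encodes a platelet chemokine that binds Cxcr2, was lower in both knockouts. It measured 6.06, 6.93 and 7.32 in Mdr2-KO/IL6-KO arrays (lowest, median and highest) and 7.09, 6.78, 8.55, 7.08 and 6.96 in Mdr2-KO arrays, against 8.73, 8.47 and 8.65 in wild type. Only Mdr2-KO array 3 reached the wild-type range. The log2 difference was -1.71 in Mdr2-KO/IL6-KO livers (SE 0.32, limma adjusted p 0.00254) and -1.33 in Mdr2-KO livers (SE 0.33, limma adjusted p 0.0119), and -1.79 and -1.64 over the 12 arrays. Cxcl1, another ligand of Cxcr2, stood at 9.84 in Mdr2-KO array 3 against 7.91 to 8.18 in the others of its genotype, and at 7.57 in Mdr2-KO/IL6-KO array 2 against 7.46 to 8.45. It thus did not share the distance of both arrays, and it passed in no comparison.

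The oxidase subunits did not move together. Cybb, the membrane subunit of the phagocyte oxidase, was higher in Mdr2-KO/IL6-KO livers than in wild type (log2 difference 0.70, limma adjusted p 0.00555, and 0.69 over the 12 arrays). Over the 12 arrays it was also higher in Mdr2-KO/IL6-KO than in Mdr2-KO livers (0.51, limma adjusted p 0.013). Its partner Cyba was lower in Mdr2-KO livers than in wild type (-0.52, limma adjusted p 0.0136), which no longer passed when wild-type array 2 was omitted (0.0607) and was -0.50 over the 12 arrays (0.0269). Cyba was higher in Mdr2-KO/IL6-KO than in Mdr2-KO livers over 14 arrays (0.37, limma adjusted p 0.046) but not over 12 (adjusted p 0.154), with arrays centred on their medians (0.0772) or without most single arrays. Rac2, a small GTPase that activates the oxidase, was lower than wild type in Mdr2-KO/IL6-KO livers (-0.44, limma adjusted p 0.0317) and in Mdr2-KO livers (-0.56, limma adjusted p 0.00848). The Mdr2-KO/IL6-KO call for Rac2 was lost without wild-type array 2 or 3, or without Mdr2-KO/IL6-KO array 4 or 6 (adjusted p 0.0513 to 0.166). The differences of Rac2 were -0.46 and -0.58 over the 12 arrays, and both passed.

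In the interleukin 1 pathway, Pycard, the inflammasome adaptor ASC, was lower than wild type in Mdr2-KO/IL6-KO livers (log2 difference -0.63, limma adjusted p 0.00684) and in Mdr2-KO livers (-0.76, limma adjusted p 0.00211), and the 12 arrays gave -0.63 and -0.74. Il1rap, the accessory chain of the interleukin 1 receptor, was lower in Mdr2-KO/IL6-KO livers than in wild type (-0.58, limma adjusted p 0.0023, and -0.55 over the 12 arrays). It was also lower than in Mdr2-KO livers (-0.42, limma adjusted p 0.0139), a call lost over the 12 arrays (adjusted p 0.0648). Gsdmd, the pore-forming protein through which Il1b leaves cells, was higher in Mdr2-KO livers by 0.27 (limma adjusted p 0.0362), a call lost over the 12 arrays (0.0802), under quantile normalization (0.0777) and without any 1 of 6 arrays. Siglece, an inhibitory receptor of myeloid cells, was lower in Mdr2-KO livers (-0.91, limma adjusted p 0.0427), a call lost without any 1 wild-type array (0.0844 to 0.107) and without any 1 of 4 Mdr2-KO arrays (0.0509 to 0.0799), and -0.98 over the 12 arrays (0.0472).

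**Figure D4:**
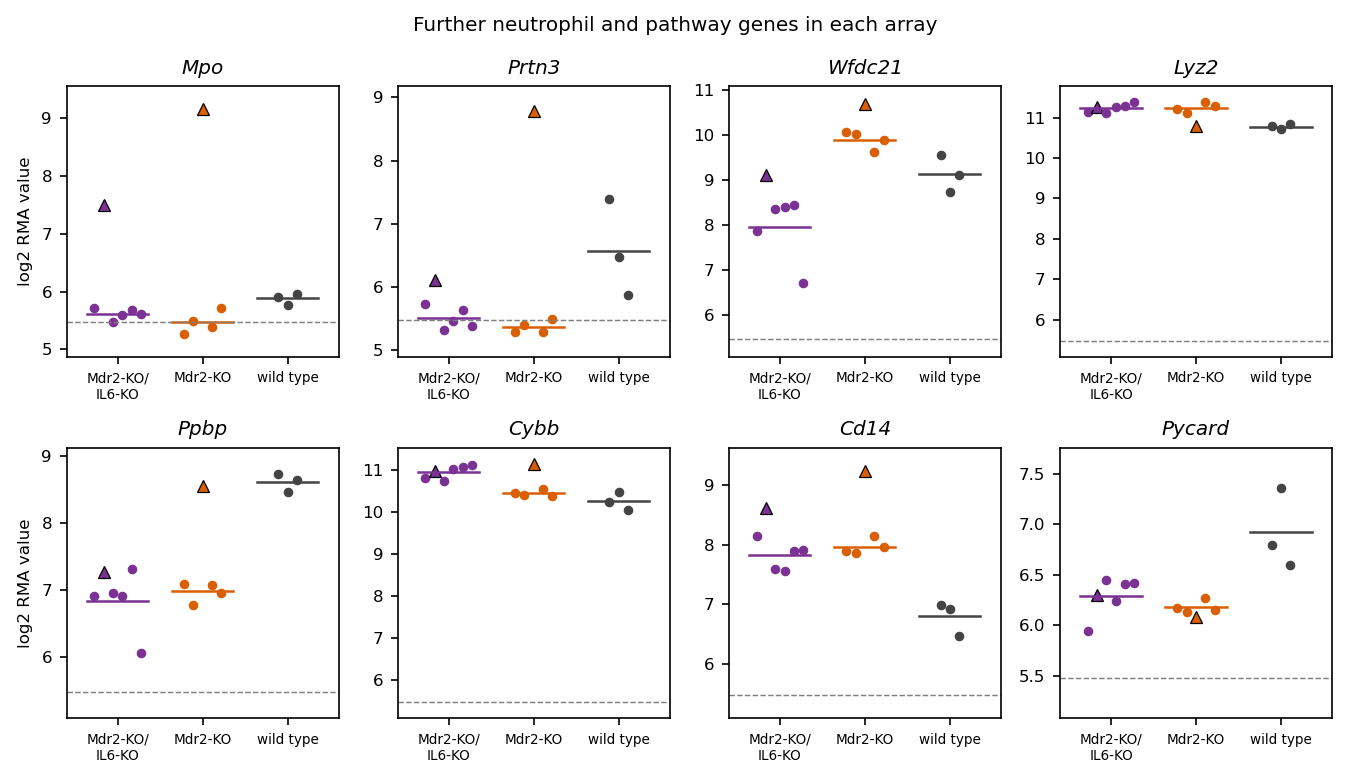
Log2 RMA value (vertical axis, its range set per gene) of 8 genes of the further lists in each array, with Mdr2-KO/IL6-KO, Mdr2-KO and wild type from left to right; symbols and lines are as in the plot of the 10 genes. Mpo and Prtn3 stand out in Mdr2-KO array 3 (9.16 and 8.78), Cd14 is higher and Ppbp and Pycard lower in both knockouts than in wild type, and Wfdc21 is lower in Mdr2-KO/IL6-KO than in Mdr2-KO.

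How far the 10 genes varied together was read from their deviations from group means, for 45 pairs, with arrays permuted within groups and Benjamini-Hochberg adjustment over the pairs. Over all 14 arrays 35 pairs passed an adjusted p of 0.05 by Pearson's r and 25 by Spearman's rho. The arrays fall into 2 extreme and 12 other arrays, so no pooled coefficient is given for these pairs. Over the 12 arrays no pair passed by either measure, and r ran from -0.693 (Cd177 and Il1b) to 0.718 (S100a9 and Retnlg). S100a8 and S100a9 had r = 0.66 and rho = 0.72 there (permutation p 0.0444 and 0.0256, adjusted 0.296 and 0.575), and S100a8 and Ngp had r = 0.285 and rho = 0.301 (adjusted permutation p 0.721 and 0.622). The pairs that passed over 14 arrays thus depend on Mdr2-KO/IL6-KO array 2 and Mdr2-KO array 3. With 12 arrays in 3 small groups, a relation among the remaining arrays could be missed.

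By likeness to S100a8, the genes outside the list of 10 with the highest r over deviations of the 14 arrays were Ifitm6 (0.98), Pglyrp1 (0.98), Slc2a3 (0.968), Timp4 (0.966) and Mpo (0.964). By likeness to Ngp they were Pglyrp1 and Ifitm6 (both 0.981), Timp4 (0.975), Trem3 (0.965) and Mpo (0.963). These values describe the same 2 arrays. Over the 12 arrays the coefficients to S100a8 were 0.401 for Ifitm6, 0.376 for Pglyrp1, 0.662 for Slc2a3, -0.242 for Timp4 and 0.332 for Mpo, and those to Ngp ran from -0.332 (Mpo) to 0.559 (Trem3).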

How the data were processed

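RNA of 14 mouse liver samples was hybridised to an Affymetrix gene array. Per the labels, the authors made the deposited log2 values with RMA, a method that corrects background, normalizes quantiles between arrays and summarises probes, and the submitters' processing notes name Partek; for versions and probe build, the sources used here hold no entry. Of 35557 probes, 21789 had 1 gene name, 21698 of them matched by gene identifier, 1621 had several and 12147 none. Each gene was read from its single-gene probe of highest mean, which gave 19938 genes, with no filter on dim genes. All 10 genes had 1 probe, and all 10 matched a RefSeq promoter (GRCm38.p6).

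Groups were compared in limma 3.58.1 (R 4.3.3) with 3 group means, empirical Bayes moderation, 2-sided p-values and adjustment over all genes by Benjamini and Hochberg, at an adjusted p of 0.05. Python 3.11.15, pandas 2.3.3 and matplotlib 3.10.9 were used for the rest, with 100000 permutations for correlations. The fit was also run on simulated data with independent normal noise and no extreme arrays. That run therefore does not cover genes with extreme arrays such as these. The 10 genes and all lists were chosen with earlier results of these data known, and the motifs after the values were seen. Named from the further lists were up to 4 genes a list that passed, or the 1 of largest change. Mpo, Elane, Ctsg, Cebpe, Gfi1, Fcnb, Mmp8, Chil3, Ly6g, Clec4d, Ptafr, Cxcl1, Lcn2, Tlr4 and Ager were chosen after their values were seen. So were Ms4a3 and Pglyrp1 for the search for arrays that stand apart. Alternatives were quantile normalization, median centring, the brightest 13292 genes, averaging the probes of a gene, testing all probes, trend and robust moderation, array weights, only the groups compared, and arrays left out. Precision rests on 6, 5 and 3 arrays and on signal over background.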

Additional observations from a re-analysis of the deposited data

Results flagged for a closer look

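In 64 groups of arrays, those of 32 genes in each knockout genotype, 34 had a highest or lowest array whose gap to the nearest other exceeded Dixon's 95% critical value. For independent groups of genes chosen without regard to their values, chance alone gives about 1 in 20. Of the 34, 33 were Mdr2-KO/IL6-KO array 2 or Mdr2-KO array 3, and 13 of the 20 groups of the granule and receptor genes were among them. The genes tested include some chosen after their values were seen, and many rise together in the same arrays, so the groups are not independent. The count is thus no estimate of how often arrays stand apart and cannot be tested against the 1 in 20.

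In Mdr2-KO/IL6-KO array 2 and Mdr2-KO array 3, the log2 values that stood apart as highest of their genotype were 8.99 and 10.12 for S100a8, 9.21 and 10.35 for S100a9, 9.24 and 10.21 for Ngp, 7.21 and 8.12 for Camp, 7.06 and 8.14 for Ltf, and 8.06 and 7.97 for Retnlg. Of the further genes, both arrays stood apart for Mpo (7.50 and 9.16), Elane (7.11 and 9.21), Ctsg (5.88 and 7.50), Mmp8 (7.08 and 7.95), Chil3 (7.16 and 7.59), Ly6g (5.66 and 6.33) and Pglyrp1 (7.37 and 7.99).

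Mdr2-KO array 3 alone stood apart for Cd177 (7.33), Prtn3 (8.78), Ppbp (8.55), Cybb (11.13), Cd14 (9.23), Ms4a3 (5.98) and Cxcl1 (9.84). The remaining case was Ppbp in Mdr2-KO/IL6-KO array 6, the lowest of its genotype at 6.06. Cxcr2, Csf3r and Il1b had no array past the critical value in either genotype.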

How the results depend on the processing

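No paired analysis was run because the labels give no pairing between arrays of different genotypes. The numbers of the knockout arrays do not come from the labels. Over the 594 recomputed log2 differences of the 10 genes that kept both extreme arrays, none passed the threshold and 17 changed sign, all of values that had not passed. The brightest 13292 genes did not include Ltf and Retnlg, so under that alternative only the rest of the 10 were tested. The count of passing genes among the 10 was 0 under every alternative except leaving out Mdr2-KO/IL6-KO array 2 and Mdr2-KO array 3 together, an alternative chosen after seeing the data, where 1 passed in Mdr2-KO/IL6-KO livers and 2 in Mdr2-KO livers, each set against wild type. Under it the further lists counted 13 passing genes in place of 8 for Mdr2-KO against wild type and 2 in place of 4 between the knockouts, and 0 correlated pairs in place of 35. Log2 differences whose sign then changed were, in Mdr2-KO/IL6-KO minus wild type, Ngp -0.246, Camp -0.021 and Ltf -0.107, for Mdr2-KO minus wild type Ngp -0.407, Camp -0.111, Ltf -0.277 and Retnlg -0.059, and for Mdr2-KO/IL6-KO minus Mdr2-KO Ngp 0.162, Camp 0.090, Ltf 0.169, Csf3r -0.066 and Cd177 0.057. Omitting array 2 of wild type together with Mdr2-KO array 3 gave, for Mdr2-KO minus wild type, Ngp -0.361, Camp -0.105, Ltf -0.320 and Retnlg -0.081, and between the knockouts S100a8 0.017, S100a9 0.363, Ngp 0.798, Camp 0.318, Ltf 0.492 and Cd177 0.177. Csf3r between the knockouts was -0.009 after quantile normalization, -0.029 after centring and -0.002 with array weights. With each array left out in turn, the ranges that crossed 0 were, for Mdr2-KO minus wild type, Ngp -0.407 to 0.894, Camp -0.111 to 0.495, Ltf -0.277 to 0.523, Retnlg -0.059 to 0.692 and Cd177 -0.297 to 0.081; for Mdr2-KO/IL6-KO minus wild type, Ngp -0.246 to 0.597, Camp -0.021 to 0.319, Ltf -0.107 to 0.289 and Csf3r -0.177 to 0.011; and between the knockouts, S100a8 -1.213 to 0.017, S100a9 -0.749 to 0.363, Ngp -0.830 to 0.798, Camp -0.383 to 0.318, Ltf -0.467 to 0.492, Retnlg -0.374 to 0.635, Cxcr2 -0.108 to 0.400, Csf3r -0.107 to 0.080 and Cd177 -0.208 to 0.177. Correlated pairs ranged from 3 to 36, the lowest without Mdr2-KO/IL6-KO array 2 and next, at 6, without Mdr2-KO array 3. Genes passing between the knockouts numbered 1746, against 2944 over all probes, 970 under the omission of wild-type 2 and Mdr2-KO 3, 687 without the 2 extreme arrays and 754 to 2164 with single arrays left out. For Mdr2-KO against wild type that range was 2140 to 4507, lowest without wild-type array 3. The split into higher and lower calls moved, in Mdr2-KO/IL6-KO livers against wild type, to 1006 and 1573 after centring (1388 and 1062 as reported), for Mdr2-KO against wild type to 1793 and 1763 after quantile normalization (1772 and 2417), and between the knockouts to 675 and 852 after quantile normalization, or 424 and 1056 after centring (1005 and 741). The cause of these changes was not tested under any alternative. Ngp, Ltf and Retnlg lie near background outside the 2 extreme arrays, which limits what their differences can show.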

Other observations

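Beyond the granule genes, the 30 genes farthest above their genotype in Mdr2-KO/IL6-KO array 2 and the 30 in Mdr2-KO array 3 shared 16 genes. Of these, 6 were among the 10 granule and receptor genes, 5 were on a further list (Mpo, Elane, Mmp8, Chil3 and Ctsg), and 5 were on none. Those 5 were Timp4, an inhibitor of metalloproteinases, at 3.33 and 3.54 log2 units, Ifitm6, an interferon-induced transmembrane protein, at 2.25 and 3.10, Sult1e1, the estrogen sulfotransferase, at 1.39 and 2.88, Ly6a2 at 1.59 and 2.84, and Obp2a, an odorant-binding protein, at 4.32 and 1.99.

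The arrays also differed from each other. Serum amyloid A genes, which encode acute phase proteins of hepatocytes, lay at -0.80 (Saa1) and -1.16 (Saa2) log2 units in Mdr2-KO/IL6-KO array 2, against 3.84 and 2.87 in Mdr2-KO array 3. The sulfotransferase gene Sult3a1 lay at -0.15 and 4.43 in the same order. The opposite held for Mmp7, a metalloproteinase of bile duct epithelium (2.32 and -0.87), and for the clock genes Ciart (2.08 and -0.30) and Per1 (1.19 and -0.77). All were chosen after their values were seen and have no test, since each distance rests on 1 array.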
